A study of Mus musculus with 9 samples.

Results

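Ifit1, Ifit2, Ifit3, Ifit3b, Oasl2, Isg15, Usp18, Rsad2, Rtp4 and Ifi44 are interferon-stimulated genes whose products act against viruses inside the cell or tune the interferon response. They were taken by gene symbol from the table of each library. All 10 have 1 row each among the 53924 rows with a gene name, and all 10 had enough reads to be among the 16634 rows tested. Bulk RNA sequencing of mouse cerebellum gave 9 libraries in 3 groups of 3. The PLX3AP mice had received 3-acetylpyridine (3-AP) after treatment with PLX3397, an inhibitor of the CSF1 receptor used to deplete microglia. The 3AP mice had received 3-AP alone, a toxin that destroys neurons of the inferior olive and is used to cause ataxia. The control mice had received saline. Strain, genotype, age, doses and times are not given in the labels, and mice given PLX3397 without 3-AP were not analysed here. Whether every library is a separate animal is not stated, so p-values reflect differences between libraries that may be technical replicates.

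Type I interferons bind the receptor pair Ifnar1 and Ifnar2. The kinases Jak1 and Tyk2 then act on signalling factors, Stat2 among them, that join Irf9 in a complex that binds interferon-stimulated response elements in promoters. In the brain, microglia, astrocytes, endothelial cells and neurons can all mount this response, and in many resting cells the genes are transcribed at a low level. Some Ifit proteins, Ifit1 among them, bind viral RNA. Isg15 is a ubiquitin-like protein that is attached to other proteins, and Usp18 takes it off again.

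Some of the genes share a motif in their promoters, which was sought in the sequence alone. Windows of 250 bases before to 50 after the transcription start came from RefSeq (GRCm38.p6) for 8 of the 10 genes, Usp18 and Rtp4 being the others. Each was searched on both strands for the core of the response element, GAAANNGAAA or its reverse complement TTTCNNTTTC. It was found in Ifit1, Ifit3, Ifit3b, Isg15 and Rsad2, 5 of 8, against 3.99% of the 27025 genes in the same table (3.44% of 32851 windows). The stretches around these matches are given in the direction of transcription with the matches in capitals, at chr19:34640770-34640828 (plus strand) for Ifit1, chr19:34583358-34583431 (plus) for Ifit3, chr19:34607754-34607827 (plus) for Ifit3b, chr4:156200860-156200911 (minus) for Isg15 and chr12:26456548-26456587 (minus) for Rsad2.
Ifit1: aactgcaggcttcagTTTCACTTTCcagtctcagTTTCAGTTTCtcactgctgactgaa
Ifit3: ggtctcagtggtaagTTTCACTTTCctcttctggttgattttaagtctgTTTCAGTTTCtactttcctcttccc
Ifit3b: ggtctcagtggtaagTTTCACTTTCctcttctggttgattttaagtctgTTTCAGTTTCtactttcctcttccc
Isg15: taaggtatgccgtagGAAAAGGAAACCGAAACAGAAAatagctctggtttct
Rsad2: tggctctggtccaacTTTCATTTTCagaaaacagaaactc
Ifit1, Ifit3 and Ifit3b hold 2 matches each on the reverse strand, Rsad2 holds 1, and Isg15 holds 3 that overlap in a single run. The stretches of Ifit3 and Ifit3b are identical in 74 of 74 bases. Ifit2 (both of its windows), Oasl2 and Ifi44 hold no match. The gamma-activated site TTCNNNGAA, a motif of interferon-responsive promoters, was found in 1 of the 8 genes, Ifit2, as TTCCTGGAA at -241 to -233 from the start, and in 9.55% of the genes in the table. The search used letters alone and did not measure binding of any factor.

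**Figure D1:**
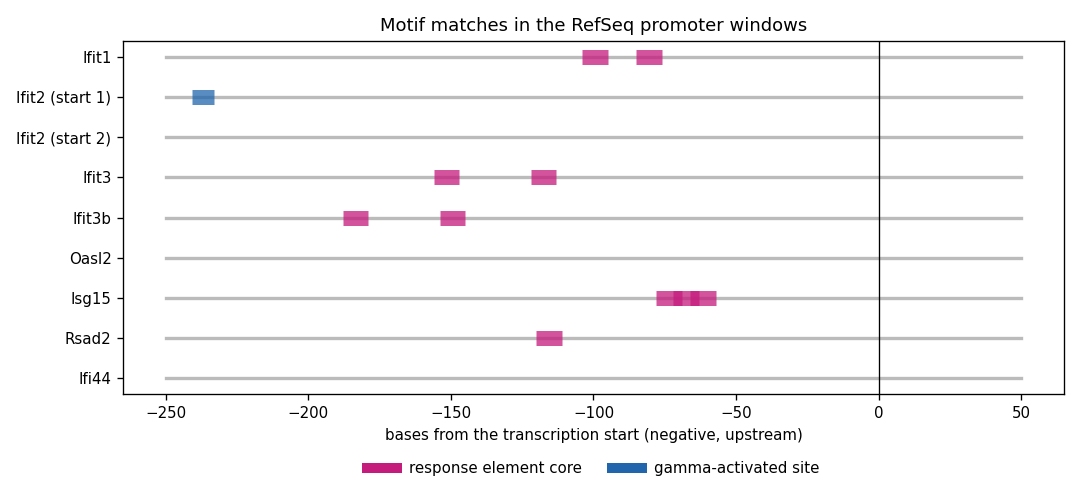
Positions of the motif matches in the RefSeq promoter windows, by distance from the transcription start in bases (negative values lie upstream), with 1 line per window. Matches to the response element core lie between -188 and -57 in 5 genes, and the gamma-activated site of Ifit2 lies at -241 to -233.

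The Ifit genes are neighbours in the genome. In the GENCODE vM21 annotation (GRCm38, the mm10 build), Ifit2 (chr19:34550694-34576419), Ifit3 (chr19:34583531-34588731), Ifit3b (chr19:34607970-34613401) and Ifit1 (chr19:34640871-34650009) are protein-coding genes on the plus strand. With Ifit1bl1 and Ifit1bl2 on the minus strand they form a cluster of 6 Ifit genes over 99316 bases. The coding sequences of Ifit3 and Ifit3b differ at 11 of 1209 bases (99.1% identity), whereas Ifit1 and Ifit2 share 55.4% of aligned bases and Ifit2 and Ifit3 share 59.7%. Estimated counts of Ifit3 and Ifit3b are not whole in 9 of 9 libraries, as happens where reads are divided between copies, so the split between these 2 genes is less certain than their sum. The other members lie apart: Ifi44 at chr3:151730922-151749960 (minus), Isg15 at chr4:156199424-156200818 (minus), Oasl2 at chr5:114896936-114912234 (plus), Usp18 at chr6:121245906-121270917 (plus), Rsad2 at chr12:26442746-26456452 (minus) and Rtp4 at chr16:23520291-23614222 (plus).

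The libraries held 18452256 to 22358447 estimated counts. The first principal component (33.4% of the variance) set the 3AP libraries, at 33.2 to 42.6, apart from the PLX3AP and control libraries, at -25.9 to -14.2. The labelled tissue was checked by its markers: the Purkinje cell gene Pcp2 stood at 2621 to 3670 TPM (transcript abundance scaled to transcript length and library total) and the granule cell gene Gabra6 at 341 to 486 TPM over all libraries. Summed TPM of 15 microglia markers was 105 to 175 in PLX3AP, 357 to 426 in 3AP and 176 to 192 in control. The microglia receptor P2ry12 averaged 4.6 ± 1.93 TPM in PLX3AP, 8.09 ± 2.54 in 3AP and 12.4 ± 1.82 in control (SD, n = 3). Microglia markers thus summed to less in the group given PLX3397, but all were present there and none passed the test against control. The sums of PLX3AP replicate 3 and control replicate 3 were almost equal, at 175 and 176 TPM. In bulk tissue, fewer cells of a type and less RNA per cell cannot be told apart.

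Every member had its highest level in the 3AP libraries, with no overlap between the 3AP values and those of either other group. In counts scaled to library size, 3AP lay above control without overlap for 13.6% of all tested rows, and above PLX3AP for 9.22%. The share of rows above both groups, or in TPM, was not counted. Ifit3, whose human counterpart binds and stabilises IFIT1, was the most abundant: it had 30.17, 29.82 and 23.94 TPM in PLX3AP (replicates 1 to 3), 63.62, 63.80 and 62.98 TPM in 3AP, and 18.06, 17.70 and 17.87 TPM in control. Its near copy Ifit3b had 14.18, 12.65 and 9.69 TPM in PLX3AP, 23.16, 21.01 and 23.62 TPM in 3AP, and 10.33, 8.67 and 7.22 TPM in control. Both genes were high in all 3AP libraries, and the PLX3AP values of Ifit3 also lay above all control values, while those of Ifit3b overlapped them. Ifit1, which binds the cap of RNA that lacks the host's methyl mark and blocks its translation, had 4.57, 3.45 and 3.27 TPM in PLX3AP, 12.73, 11.92 and 11.12 TPM in 3AP, and 2.92, 2.11 and 1.65 TPM in control. Its 3 groups did not overlap. Ifit2, which restrains neurotropic viruses in the mouse brain, had 3.88, 2.89 and 2.82 TPM in PLX3AP, 5.58, 5.37 and 5.65 TPM in 3AP, and 3.61, 3.47 and 2.81 TPM in control. Ifit2 was thus high in 3AP too, but its PLX3AP and control values were interleaved.

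The ISG15 system held the second most abundant member in 3AP. Isg15 had 12.78, 10.81 and 12.68 TPM in PLX3AP, 46.67, 43.21 and 36.31 TPM in 3AP, and 6.40, 6.07 and 6.06 TPM in control. Its 3 groups were far apart relative to their spread, at 12.1 ± 1.11 TPM in PLX3AP, 42.1 ± 5.27 TPM in 3AP and 6.18 ± 0.193 TPM in control (mean ± SD, n = 3 each). Usp18, the ISG15 protease that also binds Ifnar2 and dampens the receptor, had 1.73, 3.38 and 2.02 TPM in PLX3AP, 6.32, 9.46 and 7.88 TPM in 3AP, and 1.04, 1.35 and 1.65 TPM in control. Its groups did not overlap either, but replicate 2 of PLX3AP lay well above the other two of its group.

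The remaining effectors spanned a wide range of levels. Oasl2, an oligoadenylate synthetase-like protein with ubiquitin-like domains, had 3.88, 5.22 and 5.26 TPM in PLX3AP, 21.43, 19.95 and 14.77 TPM in 3AP, and 2.15, 3.24 and 2.76 TPM in control. Rtp4, a chaperone that helps receptors reach the cell surface, had 5.65, 4.42 and 4.73 TPM in PLX3AP, 17.38, 14.57 and 12.73 TPM in 3AP, and 2.83, 3.45 and 2.89 TPM in control. For both genes the groups were apart, with PLX3AP close to control and far from 3AP. Rsad2 encodes viperin, which makes a chain-terminating nucleotide from CTP. It had 0.93, 0.78 and 0.62 TPM in PLX3AP, 2.75, 3.16 and 2.72 TPM in 3AP, and 0.92, 0.55 and 0.34 TPM in control. Ifi44, an interferon-induced protein, had 1.33, 0.49 and 0.79 TPM in PLX3AP, 2.77, 2.55 and 2.76 TPM in 3AP, and 0.85, 0.46 and 0.73 TPM in control. These 2 genes were the lowest members in each group, rested on 10 to 24 counts in each control library, and overlapped between PLX3AP and control in TPM.

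**Figure D2:**
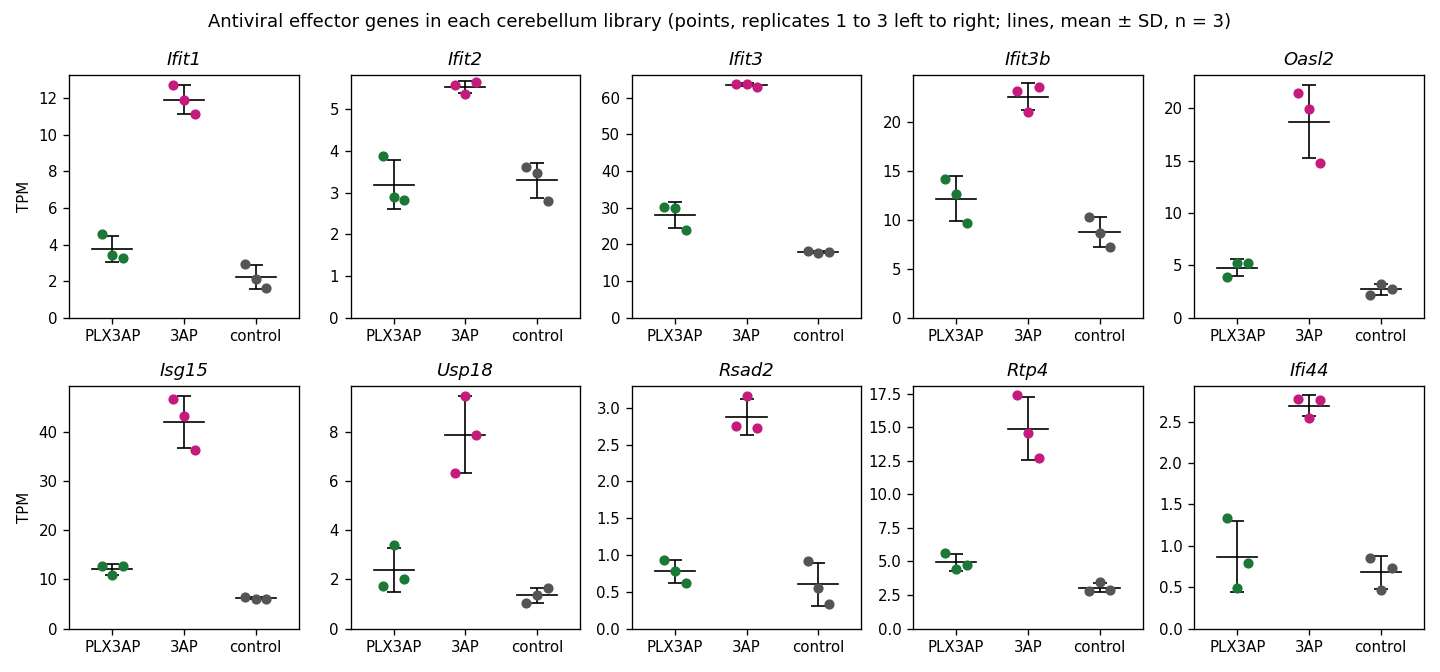
TPM of each gene in every library (points, replicates 1 to 3 from left to right in each group), with the mean and SD of 3 libraries as lines. The 3AP points lie above all PLX3AP and control points for each of the 10 genes, with Ifit3 at 63.5 ± 0.431 TPM in 3AP. The share of all rows with this pattern was not counted.

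The order of levels was partly the same in the 3 groups. Ifit3 came first in each and was apart from the next gene, and Rsad2 and Ifi44 came last without a difference beyond their spread. Isg15 was second in 3AP, apart from Ifit3 above and Ifit3b below it. In PLX3AP it did not differ from Ifit3b beyond the spread, and in control it lay below Ifit3b. The largest shift was that of Ifit2, which was the fourth in control and the eighth in 3AP. Of the summed TPM of the 10 genes, Ifit2 made up 4.37 ± 0.503% in PLX3AP, 2.88 ± 0.216% in 3AP and 7.04 ± 0.561% in control (SD, n = 3). From Rtp4 to Usp18 in PLX3AP, from Ifit3b to Ifit1 in 3AP and from Ifit2 to Usp18 in control, neighbours in the order overlapped.

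The first comparison, 3AP against control, concerns the response to 3-AP itself. Of the 10 genes 9 were called higher in 3AP at a Benjamini-Hochberg adjusted p under 0.05 in edgeR's quasi-likelihood test, which called 3.75% of all tested rows higher (623 of 16634). None was called lower. The median log2 fold change was 2.42 over the members and 0.00 over all rows. In CPM (counts scaled to library size) the 3AP and control values of all 10 did not overlap, as for 13.6% of all tested rows.

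Rsad2 rose 6.81-fold in 3AP (log2 fold change 2.77, SE 0.27, edgeR adjusted p 7.6e-05, n = 3 per group) and Oasl2 6.49-fold (log2 2.70, SE 0.17, edgeR adjusted p 6.9e-06). Isg15 rose 6.38-fold (log2 2.67, SE 0.19, edgeR adjusted p 9.7e-06) and its protease Usp18 5.69-fold (log2 2.51, SE 0.27). The intervals of these 4 genes overlap, so their order is not resolved. Ifi44 rose 5.55-fold with the widest interval (log2 2.47, SE 0.38, edgeR adjusted p 0.0018), Ifit1 5.16-fold (log2 2.37, SE 0.20) and Rtp4 4.32-fold (log2 2.11, SE 0.21). Of the other genes of the Ifit cluster, Ifit3 rose 3.42-fold (log2 1.77, SE 0.11) and Ifit3b 2.47-fold (log2 1.31, SE 0.16), and with Ifit3 and Ifit3b added together the log2 fold change was 1.62 (edgeR adjusted p 1.2e-05). Ifit2 was 1.53-fold higher without passing (log2 0.62, 95% interval 0.25 to 0.98, edgeR adjusted p 0.061, unadjusted 0.0033). That call turned with the processing: over the alternatives tried, the adjusted p of Ifit2 ran from 0.019 to 0.17, and it passed without PLX3AP replicate 1 (0.021) and without PLX3AP replicate 3 (0.034). The fold sizes of Rsad2 and Ifi44 depended on the unit. With limma on log2(TPM + 0.1) the log2 fold change was 2.16 for Rsad2 and 1.87 for Ifi44. On log2(TPM + 1) it was 1.29 for Rsad2 and 1.14 for Ifi44. Oasl2 had 2.74 and 2.4 in these settings, and Isg15 2.74 and 2.58. Differences between members were not tested.

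The comparison of PLX3AP with 3AP sets PLX3397 treatment before 3-AP against 3-AP alone. With no group given PLX3397 alone, a changed response to 3-AP and an effect of PLX3397 on levels without 3-AP cannot be told apart. All 10 genes were called lower in PLX3AP by edgeR at an adjusted p under 0.05, and no member was called higher. The same test called 3.16% of all tested rows lower (525 of 16634). The median log2 fold change was -1.59 over the members and -0.01 over all rows. CPM values of the groups did not overlap for any member, as for 9.22% of all tested rows in this direction. PLX3AP and control libraries are both set against the same 3AP libraries, so the 2 comparisons are not independent of each other.

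Oasl2 was 4.35-fold lower in PLX3AP (log2 fold change -2.12, SE 0.16, edgeR adjusted p 2.2e-05, n = 3 per group), Rsad2 3.65-fold lower (log2 -1.87, SE 0.25) and Isg15 3.35-fold lower (log2 -1.74, SE 0.18, edgeR adjusted p 8.7e-05). Usp18 fell 3.31-fold (log2 -1.73, SE 0.26), Ifit1 3.14-fold (log2 -1.65, SE 0.19) and Rtp4 2.88-fold (log2 -1.52, SE 0.20), each with an edgeR adjusted p of 0.0015 or less. Of the other genes of the Ifit cluster, Ifit3 was 2.27-fold lower (log2 -1.18, SE 0.11, edgeR adjusted p 4.7e-05), Ifit3b 1.83-fold (log2 -0.87, SE 0.16) and Ifit2 1.69-fold (log2 -0.75, SE 0.17, edgeR adjusted p 0.025). Ifi44 fell 2.76-fold (log2 -1.47, SE 0.35, edgeR adjusted p 0.035). The calls of Ifit2 and Ifi44 depend on the processing and on single libraries. With only the 2 groups in the fit, the edgeR adjusted p was 0.056 for Ifit2 and 0.053 for Ifi44. With limma on log2(TPM + 0.1), the adjusted p of Ifit2 was 0.057 on the rows tested by edgeR. Without that filter on rows, the limma adjusted p was 0.10 for Ifit2 and 0.084 for Ifi44. Ifit2 no longer passed without 3AP replicate 1 (adjusted p 0.094 in edgeR), 3AP replicate 2 (0.084), 3AP replicate 3 (0.052), PLX3AP replicate 2 (0.11) or PLX3AP replicate 3 (0.10). Ifi44 no longer passed without 3AP replicate 1 (adjusted p 0.13 in edgeR), 3AP replicate 2 (0.057), 3AP replicate 3 (0.11), PLX3AP replicate 2 (0.14), PLX3AP replicate 3 (0.15) or control replicate 2 (0.057). Their fold changes kept their sign in each of these fits.

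In PLX3AP against control no member was called in either direction by edgeR at an adjusted p under 0.05, where 0.0361% of all tested rows were called higher (6 of 16634). At an unadjusted p under 0.05, 9 of the 10 were higher in PLX3AP, as were 4.59% of all tested rows. CPM values of PLX3AP lay above those of control without overlap for 7 members and for 7.86% of all tested rows. The exceptions were Ifit2, Ifit3b and Ifi44. The median log2 fold change was 0.66 over the members and 0.00 over all rows.

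Isg15 was 1.91-fold higher in PLX3AP than in control (log2 fold change 0.93, 95% interval 0.51 to 1.35, edgeR adjusted p 0.12, n = 3 per group). Ifit3 was 1.51-fold higher (log2 0.59, 95% interval 0.35 to 0.84, edgeR adjusted p 0.090), and with Ifit3b added the log2 fold change was 0.54 (edgeR adjusted p 0.15). Both missed the threshold, but their intervals exclude equal levels before adjustment. Ifit3 passed without PLX3AP replicate 3 (log2 0.72, edgeR adjusted p 0.0088), and over all alternatives its adjusted p ran from 0.0016 to 0.37 and that of Isg15 from 0.020 to 0.43. Ifit1 was 1.65-fold higher (log2 0.72), Usp18 1.72-fold (log2 0.78), Rsad2 1.86-fold (log2 0.90), Oasl2 1.49-fold (log2 0.58) and Rtp4 1.5-fold (log2 0.59), with edgeR adjusted p-values between 0.30 and 0.44. Ifi44, at 2.01-fold, had an interval of 0.15 to 1.86 on the log2 scale, and Ifit3b stood at 1.35-fold. The fold sizes of Rsad2 and Ifi44 depended on the processing. Over all alternatives the log2 fold change ran from 0.16 to 1.16 for Rsad2 and from 0.14 to 1.3 for Ifi44. In mean TPM, Rsad2 stood at 0.777 in PLX3AP and 0.603 in control, and Ifi44 at 0.87 and 0.68. Ifit2 had a log2 fold change of -0.14 (95% interval -0.51 to 0.24), which turned to 0.02 without PLX3AP replicate 3.

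**Figure D3:**
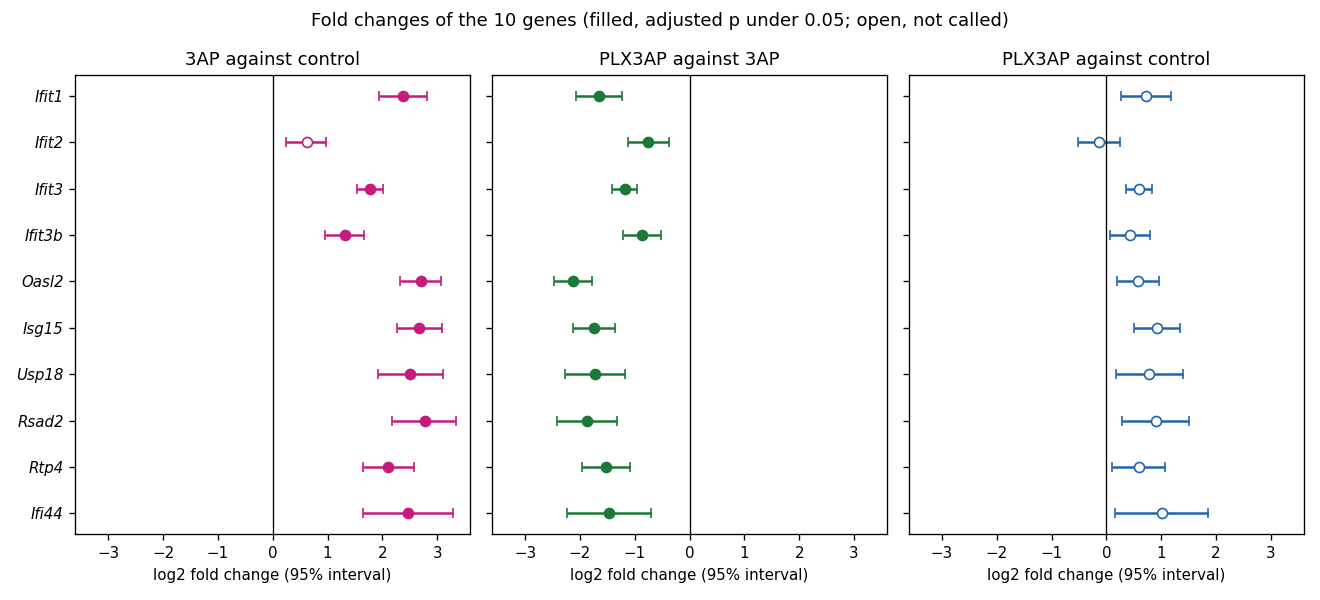
Log2 fold changes of the 10 genes in the 3 comparisons, with 95% intervals from the edgeR fit (filled points, adjusted p under 0.05). Values run from 0.62 to 2.77 for 3AP against control, from -2.12 to -0.75 for PLX3AP against 3AP and from -0.14 to 1.01 for PLX3AP against control, where every point is open.

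Within the treated groups, the same library was highest for most members. In CPM, PLX3AP replicate 1 was the highest of its group for 8 of the 10 genes, and PLX3AP replicate 3 the lowest for 6. The exceptions at the top were Oasl2 and Usp18, both highest in PLX3AP replicate 2. Among the 3AP libraries, replicate 1 was the highest for 7 genes and replicate 3 the lowest for 6, and Usp18 was lowest in replicate 1. The control libraries showed less order, with no library highest for more than 5 genes. PLX3AP replicate 1 agreed least with its group, at 27.2 and 26.2 chi-square per degree of freedom against 9.37 between replicates 2 and 3. How often each library was highest over all tested rows was not counted. Genes of 1 library share its RNA and depth, so this is a description of 9 libraries. Estimated counts of Ifit1 per count of Ifit2 were 0.803 to 0.915 in PLX3AP, 1.51 to 1.70 in 3AP and 0.396 to 0.571 in control. This ratio, chosen after its values were seen and not tested, did not overlap between any of the groups.

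The summed TPM of the 10 genes did not follow that of the microglia markers in every library. The antiviral sum was 79.1, 73.9 and 65.8 TPM in PLX3AP, 202, 195 and 181 TPM in 3AP, and 49.1, 47.1 and 44.0 TPM in control, and Ifit3 made up 31.4 to 40.6% of it in any library. The microglia marker sum was 105, 124 and 175 TPM in PLX3AP, 426, 357 and 358 TPM in 3AP, and 192, 188 and 176 TPM in control. PLX3AP replicate 1 thus held the most antiviral and the least microglia marker RNA of its group. The ratio of the sums was 0.754, 0.597 and 0.375 in PLX3AP, 0.475, 0.546 and 0.504 in 3AP, and 0.256, 0.251 and 0.250 in control. Antiviral RNA per microglia marker RNA was therefore higher in each PLX3AP and each 3AP library than in any control library, and PLX3AP and 3AP overlapped. No test was made of these sums.

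**Figure D4:**
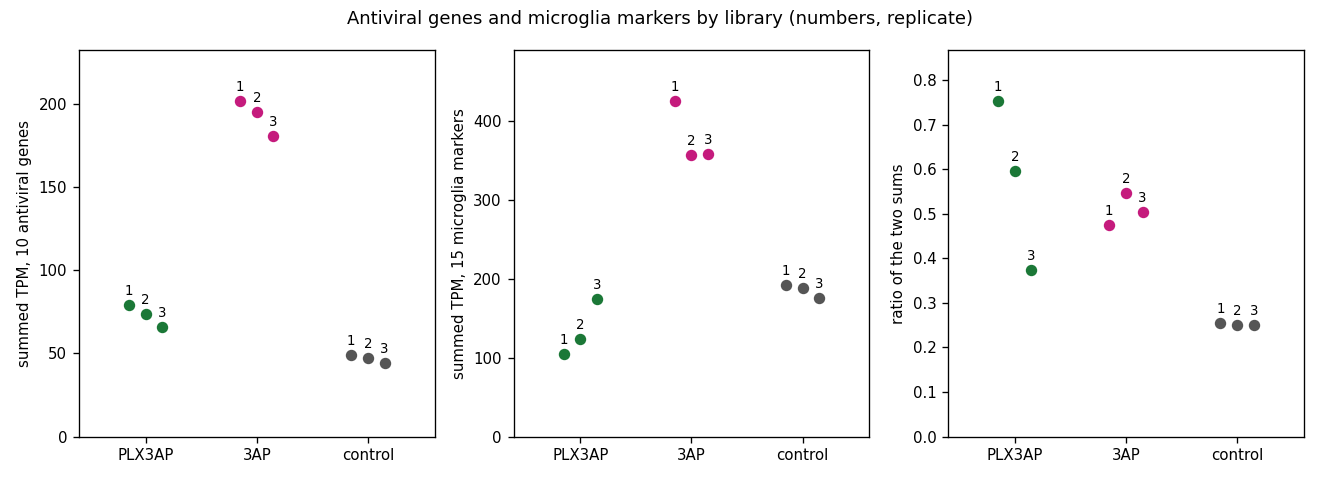
Summed TPM of the 10 antiviral genes, summed TPM of 15 microglia markers, and the ratio of the sums in every library (numbers mark the replicate). The antiviral sum of PLX3AP (65.8 to 79.1) lies above control (44.0 to 49.1), whereas its microglia marker sum (105 to 175) lies below control (176 to 192).

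Markers of other cells moved in the same comparisons. In 3AP against control, 8 of 15 microglia markers, 5 of 7 tested blood leukocyte markers (14 in the list), 3 of 9 tested markers of border-associated macrophages (10 in the list) and 6 of 10 endothelial markers were called higher by edgeR. In PLX3AP against 3AP, 9, 6, 8 and 4 of these were called lower. Of the endothelial markers, 1 was also called lower in 3AP than in control and 1 higher in PLX3AP than in 3AP. Summed TPM of the leukocyte list was 5.82 to 10.7 in PLX3AP, 49.8 to 124 in 3AP and 2.77 to 17.6 in control, with 2 of 14 markers at 0 in each group. The macrophage list summed to 3.76 to 9.89 TPM in PLX3AP, 24.1 to 36.6 in 3AP and 18 to 26 in control, and the endothelial list to 351 to 398 TPM in PLX3AP, 579 to 631 in 3AP and 363 to 368 in control. Of the 10 markers of astrocytes and Bergmann glia, 1 was called higher and 3 lower in 3AP than in control, and lower there too was 1 of 8 oligodendrocyte markers, and no Purkinje or granule cell marker passed in any comparison. The part of any cell type in the antiviral RNA was not tested.

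In PLX3AP against control, no microglia, leukocyte or endothelial marker passed, and 5 of 9 tested border-associated macrophage markers were called lower. Of all 16634 tested rows, 14 were called lower. At an unadjusted p under 0.05, 9 of 15 microglia markers were lower in PLX3AP than in control and none was higher. Of the 10 antiviral genes, 9 were higher at that threshold and Ifit2 was not. Among all 16634 tested rows, 793 were lower and 763 higher at that threshold.

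Other genes of the interferon pathway, 90 in a list arranged by role, put the 10 members in context. Of these, 61 were tested. In 3AP against control 40 were called higher and none lower by edgeR (median log2 fold change 1.26). In PLX3AP against 3AP 32 were called lower and none higher (median -1.04). In PLX3AP against control 1 was called higher, and the median was 0.12. The members' medians were 2.42, -1.59 and 0.66 in the same comparisons. Members and list were chosen with earlier results of these data known, so the medians are a description.

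The ligands themselves were almost without reads. Of 21 type I, II and III interferon genes, Ifnb1 and Ifng included, 20 had 0 counts in all libraries, and Ifnz had 0 estimated counts in PLX3AP, 5.69 in 3AP and 2.44 in control over the 3 libraries. A count of 0 over a group allows up to 0.0490 CPM in PLX3AP, 0.0493 CPM in 3AP and 0.0490 CPM in control (3 counts of the group's total, for counting error only). Interferon transcripts were thus not detectable at this depth, except for those few reads of Ifnz.

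Among 11 receptor and signalling genes, Irf9 and Stat2 of the transcription complex rose in 3AP and the receptors did not pass. Irf9, its DNA-binding subunit, averaged 10.6 ± 0.926 CPM in PLX3AP, 22.1 ± 1.41 in 3AP and 8.11 ± 1.26 in control (SD, n = 3). It rose 2.73-fold in 3AP over control (log2 1.45, edgeR adjusted p 4.6e-05) and fell 2.09-fold in PLX3AP against 3AP (log2 -1.06, edgeR adjusted p 0.00035). Stat2 rose 1.32-fold in 3AP (log2 0.40, edgeR adjusted p 0.0033) and did not pass in PLX3AP against 3AP (log2 -0.20). Ifnar1 (log2 0.13) and Ifnar2 (log2 0.38, edgeR adjusted p 0.084) did not pass in 3AP against control. The phosphatase Ptpn6, abundant in blood cells and microglia, rose 3.83-fold in 3AP and was 4.32-fold lower in PLX3AP than in 3AP.

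Of 7 tested interferon regulatory factors 3 rose in 3AP against control and 3 fell in PLX3AP against 3AP. Irf7, which amplifies interferon production and is itself induced by interferon, averaged 6.03 ± 0.180 CPM in PLX3AP, 31.8 ± 5.23 in 3AP and 3.08 ± 0.358 in control (SD, n = 3). Its change exceeded that of every member except in PLX3AP against control, where Ifi44 had the larger value: it was 10.3-fold higher in 3AP than in control (log2 3.36, SE 0.15, edgeR adjusted p 4.1e-07) and 5.27-fold lower in PLX3AP than in 3AP (log2 -2.40, SE 0.14). It was the only pathway gene called in PLX3AP against control (1.95-fold higher, log2 0.97, SE 0.16, edgeR adjusted p 0.043). That call was lost without control replicate 1, control replicate 2, 3AP replicate 1, 3AP replicate 2, PLX3AP replicate 2 or PLX3AP replicate 3, each of which left 0 pathway genes called. Irf8, a factor of microglia and other myeloid cells, rose 2.33-fold in 3AP and fell 3.22-fold in PLX3AP against 3AP, and Irf5 fell 3.83-fold in PLX3AP against 3AP. Irf1 rose 1.88-fold in 3AP.

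The enzymes that attach Isg15 to proteins rose with it. Of 6 genes 4 rose in 3AP against control and fell in PLX3AP against 3AP, as counted by edgeR calls. Uba7, the activating enzyme, averaged 2.26 ± 0.468 CPM in PLX3AP, 5.41 ± 0.320 in 3AP and 1.51 ± 0.344 in control, a 3.57-fold rise and a 2.40-fold fall. The conjugating enzyme Ube2l6 rose 2.43-fold and fell 1.87-fold, the ligase Herc6 rose 2.42-fold and fell 2.06-fold, and Trim25, a ligase that activates RIG-I, rose 2.02-fold and fell 1.88-fold. Ube2e1 and Ube2e2, conjugating enzymes of ubiquitin, had log2 fold changes of -0.12 and -0.07 in 3AP against control and did not pass. None of these 6 genes passed in PLX3AP against control.

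Of 15 relatives and neighbours of the members 9 were tested, of which 6 rose in 3AP and 4 fell in PLX3AP against 3AP. Oasl1, next to Oasl2 on chromosome 5 and in mouse a repressor of Irf7 translation, was 10.5-fold higher in 3AP than in control (log2 3.39, SE 0.42, edgeR adjusted p 0.00037) and 6.17-fold lower in PLX3AP than in 3AP (log2 -2.63). Its level was low, at 0.342 ± 0.0173 CPM in PLX3AP, 2.14 ± 0.682 in 3AP and 0.200 ± 0.0549 in control. Cmpk2, the nucleotide kinase gene beside Rsad2 on chromosome 12, rose only 1.56-fold in 3AP (log2 0.64, SE 0.12, edgeR adjusted p 0.0062) and did not pass in PLX3AP against 3AP (log2 -0.39, edgeR adjusted p 0.11). Cmpk2 was the more abundant in counts, at 17.6 ± 2.31 CPM in PLX3AP, 23.0 ± 0.430 in 3AP and 14.8 ± 1.42 in control. Ifit1bl1, inside the Ifit cluster, did not pass (log2 0.38 in 3AP against control), Ifit1bl2 had too few counts to test, and Ifi44l, beside Ifi44, had 0 counts. The Oas1 genes are close copies, between which reads may be divided. In 3AP against control Oas1b rose 7.66-fold (edgeR adjusted p 0.045), Oas1g 7.47-fold (0.0045) and Oas1a 6.86-fold (0.00046). In PLX3AP against 3AP Oas1g fell 12.2-fold and Oas1a 2.80-fold, and Oas1b did not pass (log2 -1.29, edgeR adjusted p 0.47). Oas2 rose 2.83-fold and fell 4.02-fold in these comparisons.

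Of 28 tested further effectors 23 rose in 3AP and 18 fell in PLX3AP against 3AP by edgeR calls. Zbp1, a sensor of Z-form nucleic acids that can trigger cell death, had the largest change, at 0.398 ± 0.115 CPM in PLX3AP, 4.68 ± 1.53 in 3AP and 0.117 ± 0.0801 in control (38.3-fold higher in 3AP than in control, 11.7-fold lower in PLX3AP than in 3AP). Ifi27l2a rose 10.9-fold in 3AP, and at the other end of those called Helz2 and Shisa5 rose 1.5-fold each. In PLX3AP against 3AP, Mx1, a dynamin-like antiviral GTPase, was 8.79-fold lower on very few reads (0.143 ± 0.210 CPM in PLX3AP and 1.22 ± 0.502 in 3AP), and the smallest called falls were those of Slfn5 (1.56-fold) and Tor3a (1.46-fold).

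**Figure D5:**
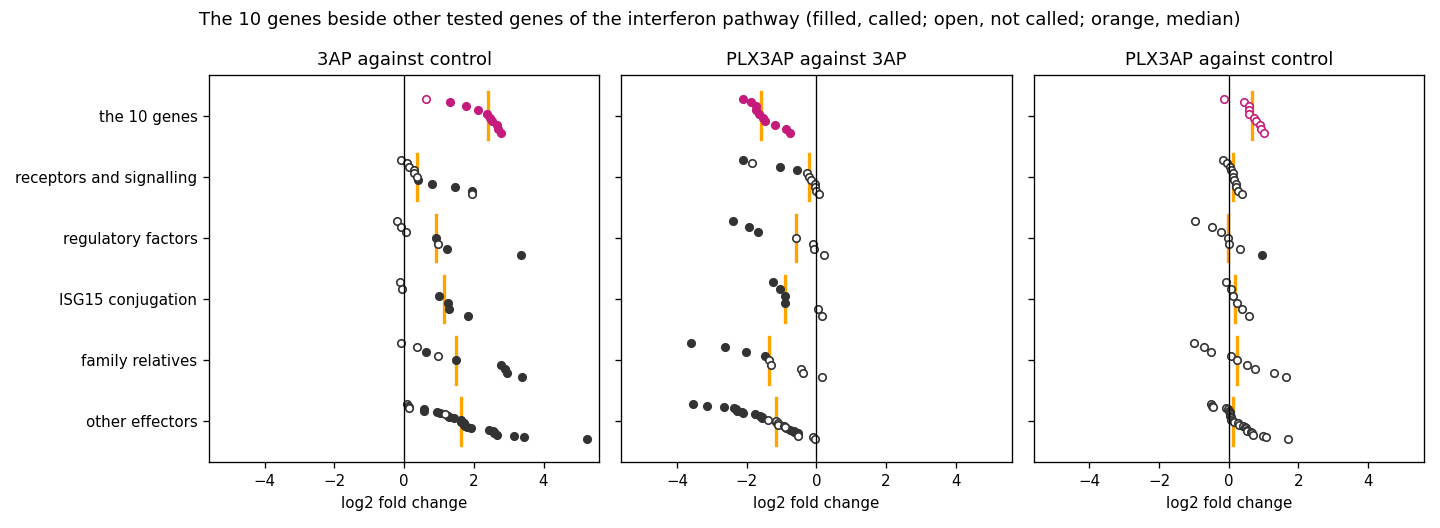
Log2 fold changes of the 10 genes and of 61 other tested pathway genes by role (filled points, edgeR adjusted p under 0.05; orange lines, medians). The members' medians of 2.42, -1.59 and 0.66 lie farther from 0 than those of any other role in the same comparison. Members and lists were chosen with earlier results of these data known, so this is a description. Single pathway genes, Zbp1 and Irf7 among them, lie beyond every member in 3AP against control. The only filled point in PLX3AP against control is Irf7.

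The response element core was also sought in the pathway list, where 3.99% of all genes in the same table hold it. It was present in the RefSeq windows of 11 of 22 further effectors, 6 of 11 relatives and 11 of 20 ligands. Many of the ligands are Ifna genes of a single family, so their matches are not independent. The other roles held it in 2 of 10 receptor and signalling genes, 1 of 7 interferon regulatory factors and 0 of 6 ISG15 conjugation genes. In lists of 6 or 7 genes, 0 or 1 match cannot be told from the share of all genes. Differences between roles were not tested.

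The profile shared by the members over the 9 libraries, as the median of their centred log2 CPM, was -0.01, -0.37 and -0.52 in PLX3AP, 1.39, 1.22 and 1.23 in 3AP, and -1.06, -0.88 and -0.84 in control. Among the members, Rtp4 was closest to it (root-mean-square difference 0.14 on the log2 scale) and Ifit2 farthest (0.66), with Ifit3b next (0.42). Of 14819 other genes with enough reads, the 8 closest were Igtp (0.13), Uba7 (0.21), Lgals3bp (0.22), H2-Q4 (0.24), Ly6a (0.24), Ddx58 (0.25), H2-T23 (0.27) and Psmb8 (0.27). Igtp encodes an immunity-related GTPase, Ddx58 the RNA sensor RIG-I, H2-Q4 and H2-T23 class I histocompatibility chains, and Psmb8 a subunit of the immunoproteasome. H2-Q4, H2-T23 and Ly6a belong to families of close copies, between which reads may be divided. These genes were chosen for their likeness, so their values are a description: Igtp averaged 4.12 ± 0.358 CPM in PLX3AP, 12.1 ± 0.869 in 3AP and 2.74 ± 0.436 in control. Ly6a averaged 28.7 ± 1.98 CPM in PLX3AP, 96.0 ± 9.03 in 3AP and 26.3 ± 4.97 in control (SD, n = 3 each).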

How the data were processed

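RNA from mouse cerebellum was measured in 9 libraries, each with 1 table of expected counts and 1 of TPM. The submitters' processing notes name fastp, HISAT2, StringTie, RSEM and mm10, without versions. The annotation, strandedness and filters are not stated there. The deposited expected counts are reads estimated per gene, not normalised. The deposited TPM are scaled by the authors to length and library total. Rows without a name (1884, 0.526 to 0.66% of counts) were left out. Expected counts were rounded and fitted with edgeR 4.0.16 in R 4.3.3 (filterByExpr, TMM factors 0.986 to 1.02, quasi-likelihood with robust dispersion, 1 term per group, 9 libraries), with two-sided p-values adjusted by Benjamini-Hochberg over 16634 rows and calls under 0.05. The pipeline was tested on simulated data. Alternatives used DESeq2 1.42.0, limma 3.58.1 on log2(TPM + 0.1) or log2(TPM + 1), other scalings and filters, and each library left out in turn. CPM are TMM-scaled, and intervals are t intervals of the fit. No pair of libraries in a group agreed within sampling noise (chi-square 4.68 to 27.2 per degree of freedom). Coding identity came from global alignments of GENCODE vM21 coding sequences (Biopython 1.88), in place of RefSeq proteins. The members and gene lists were chosen with earlier results of these data known. Named pathway genes are the 2 with the highest and the 2 with the lowest log2 fold change among those called in each role and comparison, genes of direct function beside the members, and the 8 closest in profile among rows of at least 1 CPM. Ube2e1 and Ube2e2 were named after their values were seen. Some genes of the lists are not reported here by name.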

Additional observations from a re-analysis of the deposited data

How the results depend on the processing

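Under 11 other settings, 8 to 10 members were called higher in 3AP than in control (9 to 10 with a library left out), 8 to 10 lower in PLX3AP than in 3AP (8 to 10) and 0 to 2 higher in PLX3AP than in control (0 to 1). Of 199 single values per comparison, 193 kept direction and call in 3AP against control, 182 in PLX3AP against 3AP and 192 in PLX3AP against control. The 1 that reversed was Ifit2 in PLX3AP against control without PLX3AP replicate 3 (0.02; with each other library left out, down to -0.35). Members higher in PLX3AP than in control were 1 with no filter on counts, 2 with DESeq2, and 1 each with log2(TPM + 0.1) and log2(TPM + 1). Ifit3 passed with no filter (adjusted p 0.0016) and DESeq2 (0.0018), and Isg15 with DESeq2 (0.037), TPM + 0.1 (0.02) and TPM + 1 (0.044). Pathway genes higher there were 2 with DESeq2 and 0 with the TPM settings, with only the 2 groups compared, and with the replicate block. Pathway genes lower in PLX3AP than in 3AP were 16 on unfiltered TPM (32 otherwise reported).

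Deviations of same-numbered libraries from their group means had 9 correlations of -0.203 to 0.093, against -0.112 to 0.232 for 18 pairs of other numbers. The labels do not say what the numbers mean, and these correlations cannot settle whether they pair samples. With the replicate block, rows lower in 3AP than in control were 121, rows higher in PLX3AP than in control 1 and lower 9, and Ifi44 did not pass in PLX3AP against 3AP (adjusted p 0.057).

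Over all rows, 3AP against control gave 353 higher on unfiltered TPM (623 reported), and lower (197 reported) 301 with DESeq2, 71 with TPM + 0.1, 72 with TPM + 1 and 63 on unfiltered TPM. PLX3AP against 3AP gave 309 lower on unfiltered TPM (525 reported), and higher (96 reported) 155 with DESeq2, 55 with TPM + 0.1, 60 with TPM + 1 and 32 on unfiltered TPM. PLX3AP against control gave, higher (6 reported), 21 with no filter, 42 with DESeq2, 3 with TPM + 1, 1 on unfiltered TPM and 3 with only those groups. Rows lower there (14 reported) were 50 with no filter, 68 with DESeq2, 6 with TPM + 1 and 4 on unfiltered TPM. Leaving out 1 library gave 381 to 721 higher and 85 to 270 lower (3AP against control), 47 to 144 higher and 354 to 571 lower (PLX3AP against 3AP), and 0 to 21 higher and 7 to 132 lower (PLX3AP against control, both highest without PLX3AP replicate 1), with 0 to 1 pathway genes higher in the last. The cause of these differences was not tested. Depth limits Rsad2 and Ifi44 most.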

Other observations

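The relation of TPM to counts differed between control libraries for Rsad2 and Ifi44. Rsad2 had 14 estimated counts but 0.92 TPM in control replicate 1, against 24 counts and 0.55 TPM in control replicate 2 and 17 counts and 0.34 TPM in control replicate 3. Its TPM per CPM was 1.34 in control replicate 1 and 0.41 to 0.481 in the other 8 libraries. Ifi44 showed the same in that library, at 1.73 TPM per CPM.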
